A study of Mus musculus with 8 samples.

Results

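The nuclear-encoded subunits of the mitochondrial respiratory chain and of ATP synthase were followed in lesional mouse skin. The members were the protein-coding rows of the deposited table whose symbols name a subunit of complex I (Nduf, without the Ndufaf assembly factors), II (Sdh), III (Uqcr), IV (Cox4 to Cox8) or V (Atp5). The rule goes by name alone. It gave 86 genes of 25378, with 41 in complex I, 4 in complex II, 8 in complex III, 16 in complex IV and 17 in complex V. Of these, 85 passed the filter for testing, with at least 4 libraries at 1 FPKM or above. The remaining member was Ndufb4c, a gene copy of Ndufb4 with 6 to 24 reads per library.

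Bulk RNA sequencing of back skin from wild type female C57BL/6 mice aged 6 weeks gave 8 libraries. All mice had received 5 nmol of MC903 on the back daily over 10 days. MC903, also called calcipotriol, is a vitamin D analog used to produce inflammation like that of atopic dermatitis. In the propionic acid group (4 libraries), 1 mM propionic acid was put on the same skin 1 h after MC903. The control group (4 libraries) received a control application whose content the labels do not give. Skin was taken on day 11. No library came from skin without MC903, so every value below is a level within inflamed skin. The libraries are called biological replicates in the labels, without a statement on which animals they came from, and p-values measure the spread between them.

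Complex I takes electrons from NADH and complex II takes them from succinate. Both pass them through ubiquinone to complex III, then through cytochrome c to complex IV, where oxygen is reduced. Complexes I, III and IV pump protons, and complex V, the ATP synthase, uses the returning protons to make ATP. Complexes I, III, IV and V each also hold subunits encoded by mitochondrial DNA. No row of the deposited table was found by symbol for those 13 protein genes, so they were not analysed here. Several complex IV subunits exist as a widely expressed form and a form of heart and skeletal muscle, lung or testis. Back skin samples can contain the thin skeletal muscle sheet under the skin, the panniculus carnosus.

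The subunits were among the abundant messages of this skin. FPKM is the fragment count of a gene scaled to its length and to library depth. Levels can thus be set side by side between genes, though only roughly. A trend on gene length that differs between libraries remained, as given below. Lists of 4 values for a group run from replicate 1 to replicate 4. The median member had a mean of 122 FPKM over the 8 libraries, and 51 of the 86 members averaged over 100 FPKM. Cox4i1, the widely expressed form of subunit 4 of complex IV, had the highest mean at 688 FPKM. Ndufa4 followed with 658 FPKM, and then Cox6b1 with 583 FPKM. Only 5 members averaged under 10 FPKM, namely Ndufs6b, Cox6b2, Cox4i2, Ndufb4b and Ndufb4c. Together the members took 1.176% to 1.498% of the reads of a library. Libraries held 39034193 to 40194111 reads recovered from the FPKM values, and a member had a median of 4543.5 reads per library, against 1224 for a tested gene.

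Comparing propionic acid with control, which is the contrast the study was built on, no member passed the threshold. In limma on log2(FPKM + 1), 0 of 85 tested members had an adjusted p under 0.05, as did 0 of all 12598 genes tested (0%). At an unadjusted p under 0.05, 4 of 85 members (4.71%) were higher and 0 were lower in the propionic acid group, beside 4.07% of all tested genes higher and 2.21% lower. Those 4 were Cox7a1 (chr7:30184144-30186078, plus strand), Cox6b2 (chr7:4751792-4753094, minus strand), Ndufb2 (chr6:39592574-39603382, plus strand) and Ndufc1 (chr3:51404677-51408988, minus strand), at their GENCODE vM21 positions on GRCm38. Limma-voom on the recovered reads gave 5 members at an unadjusted p under 0.05, beside 3.87% of all tested genes higher. It gave 0 genes past the adjusted threshold. The 4 propionic acid values of a member never lay all above or all below the 4 control values, while 2.06% of all tested genes had groups that did not overlap with propionic acid higher and 1.1% with propionic acid lower. In this fit the share of members higher at an unadjusted p under 0.05 was close to that of all genes.

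Most members had a log2 fold change slightly above 0. It was above 0 in 74 of 85 members and below 0 in 11, beside 51.7% of all tested genes above 0. With quantile normalization the split was 63 above and 22 below. The median log2 fold change of the tested members was 0.13, against 0.01 for all tested genes. Members share libraries, so these counts describe these 8 samples and carry no test. For 82 of the 85 members the unadjusted 95% confidence interval lay within 1 log2 unit of 0 on both sides, and the exceptions were Cox7a1, Cox6b2 and Cox8b. Single libraries moved these summaries. Against 0.125 with all 8, the median was 0.055 when propionic acid replicate 4 was left out and 0.079 when replicate 1 of that group was. Leaving out propionic acid replicate 2 gave 0.185, replicate 3 of that group 0.192, and control replicate 2 gave 0.189. The count of members at an unadjusted p under 0.05 was 2 when propionic acid replicate 1 or 4 or control replicate 1, 3 or 4 was left out, beside 2.21% to 4.25% of all tested genes higher in those fits. Leaving out propionic acid replicate 2 gave 6, propionic acid replicate 3 gave 8 and control replicate 2 gave 9, all of them higher, beside 4.39%, 4.28% and 5.75% of all tested genes higher in the same fits. The medians by complex also rested on single libraries. With 1 library left out in turn, all 5 were lowest without propionic acid replicate 4, at 0.073, 0.038, 0.054, 0.046 and 0.022 for complexes I to V. The highest were 0.21 for complex I without propionic acid replicate 3, 0.176, 0.199 and 0.13 for complexes II, IV and V without propionic acid replicate 2, and 0.158 for complex III without control replicate 2.

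**Figure D1:**
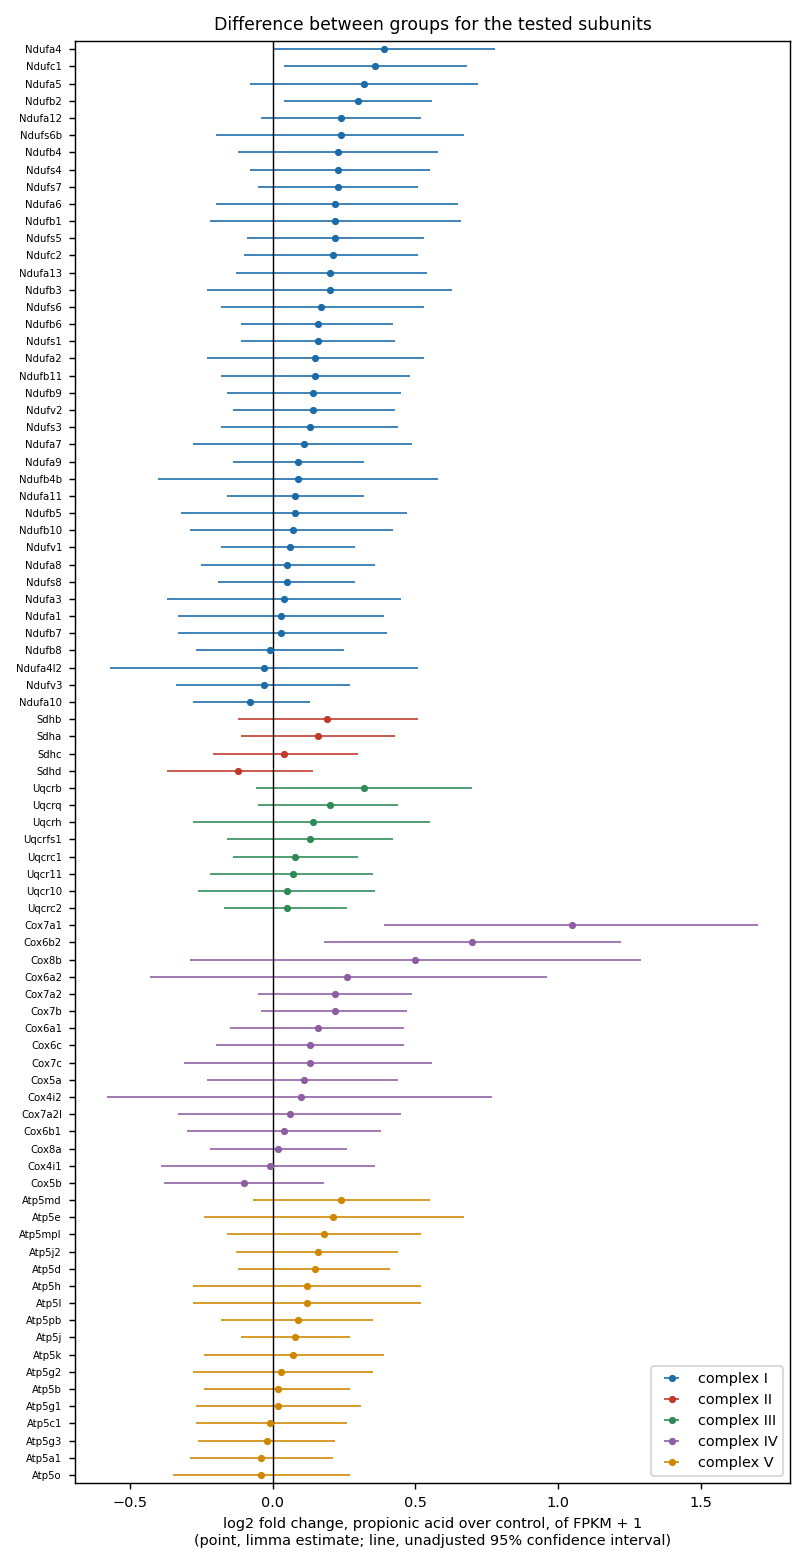
Log2 fold change of FPKM + 1, propionic acid over control, for tested members in order of size within each complex. Points are limma estimates and lines unadjusted 95% confidence intervals; most points lie above 0, and the largest is Cox7a1 at 1.05.

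The values of each library showed a common pattern that did not follow the groups. Relative to its own mean over all libraries, the median member stood at 0.22, -0.13, -0.09 and 0.27 log2 units in propionic acid replicates 1 to 4, and at -0.13, 0.10, -0.11 and -0.08 in control replicates 1 to 4. Propionic acid replicates 1 and 4 and control replicate 2 were thus the high libraries, and the other 5 were low. These were the 3 highest libraries for 58 of 86 members (67.4%), against 968 of 12513 other tested genes (7.74%). The 3 libraries were picked after their values were seen, so both shares are descriptions. By complex the pattern held for 32 of 41 members of complex I, 0 of 4 of complex II, 5 of 8 of complex III, 11 of 16 of complex IV and 10 of 17 of complex V. A principal component analysis of the members put 72.3% of their variance on the leading component, against 38.9% for all tested genes. The lowest library of a member was propionic acid replicate 2, control replicate 1 or control replicate 3 in 63 of 86 members.

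**Figure D2:**
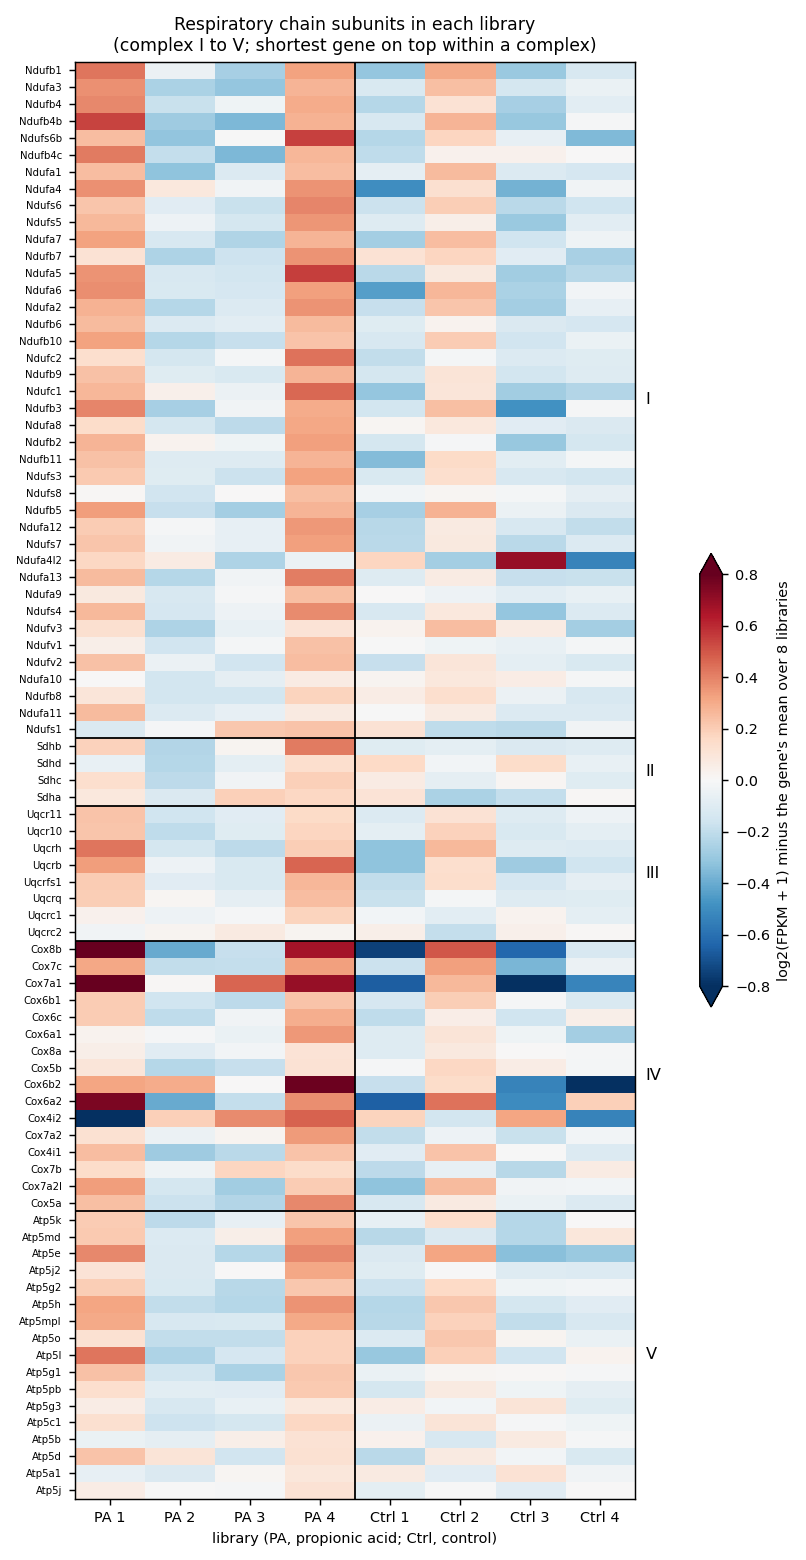
Level of members (rows) in the 8 libraries (columns), as log2(FPKM + 1) minus the mean of the gene, ordered by complex and by gene length within a complex. Colours are capped at 0.8 in either direction; propionic acid replicates 1 and 4 and control replicate 2 are red for most rows outside complex II, and the tissue isoforms of complex IV have the widest spread.

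In most members the highest library was at most 2 times the lowest, a ratio that was not computed for the other tested genes. The ratio of the highest to the lowest library had a median of 1.46 over the 86 members. It ran from 1.16 for Cox8a and Atp5j to 4.68 for Cox7a1. It was over 2 in 9 members, which were the 3 gene copies, the 5 tissue isoforms of complex IV and Ndufa4l2.

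Complex I, the NADH dehydrogenase, had 36 of 40 tested members above 0 and 4 below, with a median log2 fold change of 0.15. The summed level of its 41 genes was 4878 ± 785 FPKM in the propionic acid group and 4315 ± 483 FPKM in the control group (SD, n = 4 each), a ratio of 1.13. The difference was smaller than the SD of the propionic acid group. Among the core subunits, the N module (Ndufv1, Ndufv2 and Ndufs1), which oxidises NADH, had log2 fold changes of 0.06, 0.14 and 0.16. In the Q module, which hands electrons to ubiquinone, Ndufs3, Ndufs7 and Ndufs8 had 0.13, 0.23 and 0.05. The 30 accessory subunits had a median of 0.15, with 27 above 0. None of these core or accessory genes had an adjusted p below 0.769 in limma.

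Ndufa4 was the most abundant gene named for complex I. Its protein was long counted as a complex I subunit and was later found with complex IV. It had 831, 684, 633 and 826 FPKM in the propionic acid libraries, against 457, 704, 495 and 631 FPKM in the control libraries, and the 2 groups overlapped through control replicate 2 (log2 fold change 0.39, SE 0.17, limma adjusted p = 0.795). Its interval ran from 0.00 to 0.78. Ndufc1, a small membrane subunit, had 64.6, 55.2, 51.8 and 74.1 FPKM in the propionic acid libraries, against 43.1, 57.3, 44.0 and 45.4 FPKM in the control libraries (log2 fold change 0.36, SE 0.14, limma adjusted p = 0.77). Control replicate 2 stood above the other control libraries and within the propionic acid range. Ndufb2, an accessory subunit of the membrane arm, had 51.7, 43.6, 41.6 and 53.9 FPKM in the propionic acid libraries, against 38.6, 42.3, 34.4 and 38.6 FPKM in the control libraries (log2 fold change 0.3, SE 0.12, limma adjusted p = 0.769). Its groups overlapped only at 42.3 FPKM in control replicate 2 against 41.6 FPKM in propionic acid replicate 3. Exons of Ndufb2 overlap those of Braf on the opposite strand and of 2 other annotated genes. The counting strand is not given in the sources used here, so reads of these genes cannot be told apart.

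Ndufa4l2, a paralog of Ndufa4 known to be induced in low oxygen, had its own order of libraries. It had 68.4, 63.6, 51.1 and 58.8 FPKM in the propionic acid libraries, against 68.7, 50.2, 99.3 and 41.7 FPKM in the control libraries (log2 fold change -0.03, SE 0.24, limma adjusted p = 0.986). Control replicate 3 was the highest library and control replicate 4 the lowest, so the control libraries spanned the whole propionic acid range. Its exons overlap Shmt2 on the opposite strand. The gene copies Ndufb4b and Ndufs6b had means of 3.89 and 6.29 FPKM, against 159.9 FPKM for Ndufb4 and 120.2 FPKM for Ndufs6. GENCODE lists Ndufs6b and Ndufb4c as processed pseudogenes, and reads may have been split between near-identical copies, so their levels are uncertain.

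Complex II, the succinate dehydrogenase that also serves the citric acid cycle, had 3 of 4 members above 0 and a median of 0.10. Its summed level was 378 ± 48.2 FPKM in the propionic acid group and 357 ± 16.3 FPKM in the control group (SD, n = 4 each). Sdhb, the iron-sulfur subunit, was its most abundant member with 123, 91.8, 110.0 and 145 FPKM in the propionic acid libraries, against 101, 103, 100.1 and 101 FPKM in the control libraries (log2 fold change 0.19, SE 0.14, limma adjusted p = 0.86). The control libraries lay close together, and the propionic acid libraries lay on both sides of them. Sdha, which holds the flavin and oxidises succinate, had 77.5, 67.4, 83.6 and 82.2 FPKM in the propionic acid libraries, against 78.9, 61.1, 64.0 and 73.5 FPKM in the control libraries (log2 fold change 0.16, SE 0.12, limma adjusted p = 0.864). The membrane anchors Sdhc and Sdhd had log2 fold changes of 0.04 and -0.12, the second being the lowest of all 85 members. Its median member stood 0.07 log2 units below its mean in control replicate 2, which was a high library for the other complexes. Its genes were also longer than most members, with a median of 1293 bases against 754 for all members.

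Complex III, the cytochrome bc1 complex, had 8 of 8 members above 0, between 0.05 and 0.32, with a median of 0.10. Its summed level was 1796 ± 262 FPKM in the propionic acid group and 1628 ± 166 FPKM in the control group (SD, n = 4 each). Uqcrh, the hinge protein, was the most abundant with 688, 465, 442 and 588 FPKM in the propionic acid libraries, against 409.6, 613, 476 and 475 FPKM in the control libraries (log2 fold change 0.14, SE 0.18, limma adjusted p = 0.911). Propionic acid replicate 1 and control replicate 2 were its highest libraries. Uqcrb, a small accessory subunit near the ubiquinone site, had 308, 238, 224 and 338 FPKM in the propionic acid libraries, against 195, 268, 200.2 and 219 FPKM in the control libraries (log2 fold change 0.32, SE 0.17, limma adjusted p = 0.828). Its exons overlap Gm10767 on the opposite strand. Uqcrq, also a small accessory subunit, had 166, 146, 138 and 172 FPKM in the propionic acid libraries, against 128, 143, 135 and 135 FPKM in the control libraries (log2 fold change 0.2, SE 0.11, limma adjusted p = 0.839). Propionic acid replicate 3 lay among the control values of both genes. The catalytic Rieske protein Uqcrfs1 and the core proteins Uqcrc1 and Uqcrc2 had log2 fold changes of 0.13, 0.08 and 0.05.

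**Figure D3:**
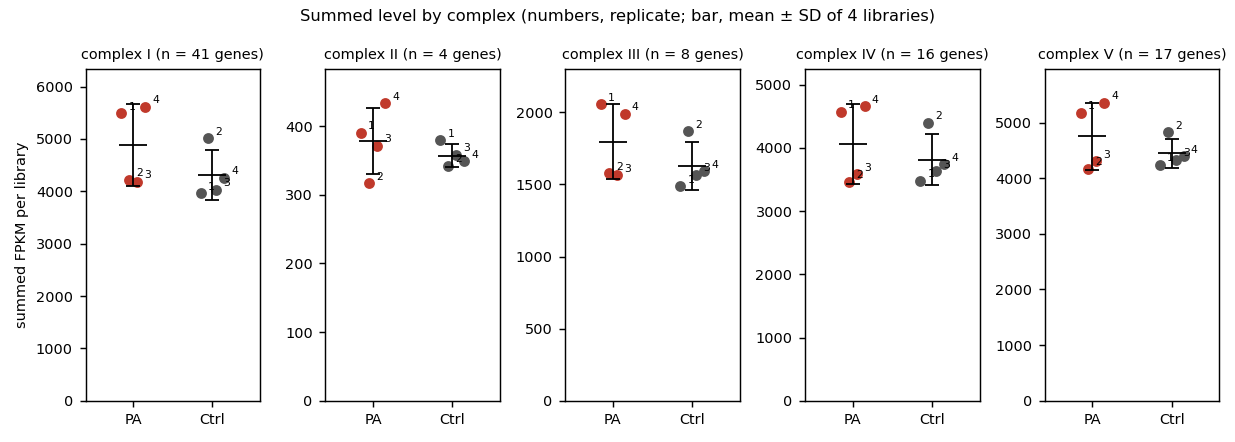
Summed FPKM of the members of each complex in each library, propionic acid left and control right; numbers are replicates and bars mean ± SD of 4 libraries. In complexes I, III, IV and V, propionic acid replicates 1 and 4 and control replicate 2 are the 3 highest points.

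Complex V, the ATP synthase, had 13 of 17 members above 0 and a median of 0.08. Its summed level was 4751 ± 600 FPKM in the propionic acid group and 4449 ± 260.5 FPKM in the control group (SD, n = 4 each). The catalytic head and central stalk (Atp5a1, Atp5b, Atp5c1, Atp5d and Atp5e) had a median of 0.02. The proton-carrying c ring (Atp5g1, Atp5g2 and Atp5g3) also had 0.02. Atp5b, the catalytic beta subunit, was the most abundant with 506, 501, 543 and 569.6 FPKM in the propionic acid libraries, against 539, 481, 552 and 524 FPKM in the control libraries (log2 fold change 0.02, SE 0.11, limma adjusted p = 0.985). Its order of libraries differed from that of most members, with control replicate 2 the lowest of the 8. The membrane accessory subunits had a median of 0.16, with 5 of 5 above 0. Atp5md, also called DAPIT and known for its part in ATP synthase dimers, had 442, 354, 394 and 479.7 FPKM in the propionic acid libraries, against 328, 353, 326 and 406 FPKM in the control libraries (log2 fold change 0.24, SE 0.14, limma adjusted p = 0.841). Atp5j2, the f subunit, had 529, 452, 491 and 606 FPKM in the propionic acid libraries, against 458, 489, 455 and 454 FPKM in the control libraries (log2 fold change 0.16, SE 0.13, limma adjusted p = 0.878). In both genes, the lowest propionic acid library, replicate 2, was below the highest control library.

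Complex IV, cytochrome c oxidase, held both the steadiest and the most variable members. Its summed level was 4066 ± 633 FPKM in the propionic acid group and 3808 ± 403 FPKM in the control group (SD, n = 4 each), and 14 of 16 members were above 0 with a median of 0.13. The 10 shared subunits had a median log2 fold change of 0.12. The 5 tissue isoforms (Cox4i2, Cox6a2, Cox6b2, Cox7a1 and Cox8b) had a median of 0.50, with 5 of 5 above 0. Cox7a2l, classed as a factor for supercomplexes of complexes III and IV, had 0.06. Its action in this mouse strain was not tested.

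Cox7a1, the heart and skeletal muscle form of subunit 7a, had the largest difference among the members. It had 32.6, 17.0, 23.7 and 28.0 FPKM in the propionic acid libraries, against 10.3, 20.4, 6.97 and 11.4 FPKM in the control libraries. Control replicate 2, at 20.4 FPKM, was above propionic acid replicate 2, at 17.0 FPKM, and the other 3 control libraries were below every propionic acid library. The log2 fold change was 1.05 (SE 0.29, unadjusted 95% interval 0.39 to 1.7), with an unadjusted p of 0.00555 and an adjusted p of 0.489 in limma. It was 1.31 without control replicate 2 and 0.66 without control replicates 1 and 3. Cox7a2, the widely expressed partner, had 185, 164, 173 and 216 FPKM in the propionic acid libraries, against 148, 165, 149.9 and 167 FPKM in the control libraries (log2 fold change 0.22, SE 0.12, limma adjusted p = 0.828). Its level was several times that of Cox7a1 in every library.

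The other muscle isoforms had smaller group differences, and for both of them propionic acid replicates 1 and 4 and control replicate 2 were the highest libraries. Cox8b, the heart and skeletal muscle form of subunit 8, had 132, 51.8, 60.4 and 109 FPKM in the propionic acid libraries, against 40.5, 97.5, 44.2 and 62.8 FPKM in the control libraries (log2 fold change 0.5, SE 0.35, limma adjusted p = 0.86). Cox8a, its widely expressed partner, had 285, 259, 272 and 298 FPKM in the propionic acid libraries, against 257, 291, 276 and 274 FPKM in the control libraries (log2 fold change 0.02, SE 0.11, limma adjusted p = 0.98). The interval of Cox8a ran from -0.22 to 0.26. Cox6a2, the muscle form of subunit 6a, had 176, 78.8, 91.3 and 135 FPKM in the propionic acid libraries, against 66.1, 142, 73.5 and 119 FPKM in the control libraries (log2 fold change 0.26, SE 0.31, limma adjusted p = 0.902). Cox6a1, its partner, had 332, 323, 314 and 414 FPKM in the propionic acid libraries, against 302, 349.6, 317 and 269 FPKM in the control libraries (log2 fold change 0.16, SE 0.14, limma adjusted p = 0.885). Propionic acid replicate 1 was the highest library for Cox8b and Cox6a2, and control replicate 1 the lowest for both. Exons of Cox6a2 overlap Itgad on the opposite strand.

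Promoter sequences of the 2 muscle isoforms with the larger differences are shown beside those of their widely expressed partners, because the members of each pair encode the same subunit and differed in how much they varied. They come from RefSeq on GRCm38.p6 and run from 250 bases before to 50 bases after the gene start, 5′ to 3′ on the gene's strand. Cox7a1 is at chr7:30183921-30184220 on the plus strand, Cox7a2 at chr9:79759804-79760103, Cox8b at chr7:140900397-140900696 and Cox8a at chr19:7217567-7217866, the last 3 on the minus strand. Capitals mark any match to the letters CCGGAAG on either strand, the core bound by ETS-family factors such as GABP, or to the other motifs described further on.
Cox7a1: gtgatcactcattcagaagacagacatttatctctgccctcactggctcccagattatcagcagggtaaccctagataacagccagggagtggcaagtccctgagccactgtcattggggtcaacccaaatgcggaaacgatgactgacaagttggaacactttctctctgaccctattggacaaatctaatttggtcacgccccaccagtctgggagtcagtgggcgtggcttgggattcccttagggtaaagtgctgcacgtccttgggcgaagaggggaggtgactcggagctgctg
Cox7a2: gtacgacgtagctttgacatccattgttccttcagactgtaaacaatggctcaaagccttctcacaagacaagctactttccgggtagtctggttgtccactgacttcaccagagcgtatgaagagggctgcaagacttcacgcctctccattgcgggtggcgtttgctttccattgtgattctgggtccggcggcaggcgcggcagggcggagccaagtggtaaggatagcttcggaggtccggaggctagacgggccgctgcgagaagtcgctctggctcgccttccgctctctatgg
Cox8b: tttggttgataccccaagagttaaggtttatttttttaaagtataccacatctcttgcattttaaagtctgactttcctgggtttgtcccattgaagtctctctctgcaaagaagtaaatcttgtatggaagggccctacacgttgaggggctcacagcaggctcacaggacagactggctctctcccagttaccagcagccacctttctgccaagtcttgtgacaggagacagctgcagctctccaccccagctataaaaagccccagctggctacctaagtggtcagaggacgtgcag
Cox8a: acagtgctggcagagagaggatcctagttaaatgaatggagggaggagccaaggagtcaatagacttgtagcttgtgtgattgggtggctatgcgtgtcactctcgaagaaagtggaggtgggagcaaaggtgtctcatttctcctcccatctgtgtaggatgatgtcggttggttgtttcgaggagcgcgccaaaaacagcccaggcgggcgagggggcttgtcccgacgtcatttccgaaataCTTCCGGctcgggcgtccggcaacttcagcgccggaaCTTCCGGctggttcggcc
The Cox8a window held 2 ETS matches, both on the minus strand of the sequence shown, and the other 3 held no match to any motif searched. The muscle forms had fewer CG dinucleotides, 7 in Cox7a1 and 2 in Cox8b, against 20 in Cox7a2 and 19 in Cox8a. Their GC content was 53% and 48.3%, against 56.7% and 56% in the partners.

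The remaining pairs hold the lung and testis forms. Cox6b2, the testis form of subunit 6b, had 7.25, 7.11, 5.62 and 10.4 FPKM in the propionic acid libraries, against 4.81, 6.33, 3.56 and 2.74 FPKM in the control libraries (log2 fold change 0.7, SE 0.23, limma adjusted p = 0.65). Control replicate 2 lay above propionic acid replicate 3, and the other values were apart. Cox6b2 had 65 to 255 reads per library, far fewer than most members. Cox6b1, its partner, had 668, 519.5, 501 and 679 FPKM in the propionic acid libraries, against 526, 665, 574 and 533 FPKM in the control libraries (log2 fold change 0.04, SE 0.15, limma adjusted p = 0.974). Cox4i2, the lung form of subunit 4, which also responds to low oxygen, had 2.61, 6.41, 7.42 and 7.99 FPKM in the propionic acid libraries, against 6.34, 4.86, 7.07 and 3.48 FPKM in the control libraries (log2 fold change 0.1, SE 0.3, limma adjusted p = 0.964). Propionic acid replicate 1 was its lowest library and replicate 4 its highest. Cox4i1 had 810.2, 559.5, 586 and 799 FPKM in the propionic acid libraries, against 639.6, 799, 679 and 633 FPKM in the control libraries (log2 fold change -0.01, SE 0.17, limma adjusted p = 0.994). Its interval ran from -0.39 to 0.36.

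A share within a pair divides out what both genes have in common in a library. The share of the tissue form in the summed FPKM of its pair was compared with an exact permutation test, 2-sided, over the 70 ways to split 8 libraries into 4 and 4. The smallest p this design allows is 0.0286, and p was adjusted by Benjamini-Hochberg over the 6 pairs. Cox7a1 made up 15.0%, 9.38%, 12.1% and 11.5% of its pair in the propionic acid libraries, against 6.51%, 11.0%, 4.45% and 6.39% in the control libraries. The mean was 12.0% ± 2.31 in the propionic acid group and 7.07% ± 2.76 in the control group (SD, n = 4 each), with an exact permutation p of 0.0571 and an adjusted p of 0.171. The groups overlapped through control replicate 2. Cox6b2 made up 1.07%, 1.35%, 1.11% and 1.52% in the propionic acid libraries, against 0.905%, 0.943%, 0.615% and 0.512% in the control libraries. These groups did not overlap, the exact permutation p was the smallest possible, 0.0286, and the adjusted p was 0.171. Every share of Cox6b2 was under 2% of its pair, the rest being Cox6b1.

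No share passed the adjusted threshold. Cox8b averaged 23.3% ± 7.11 in the propionic acid group and 17.8% ± 5.4 in the control group (SD, n = 4 each, exact permutation p = 0.257, adjusted p = 0.514). Cox6a2 averaged 25.4% ± 6.55 in the propionic acid group and 24.1% ± 6.64 in the control group (exact permutation p = 0.83, adjusted p = 0.83). Cox4i2 averaged 0.924% ± 0.416 in the propionic acid group and 0.791% ± 0.25 in the control group (exact permutation p = 0.657, adjusted p = 0.789). Ndufa4l2 averaged 7.56% ± 0.764 of its pair with Ndufa4 in the propionic acid group and 10.7% ± 5.11 in the control group (exact permutation p = 0.4, adjusted p = 0.6). With 4 libraries a group and 6 pairs, the adjusted p cannot fall below 0.05 unless several pairs reach the smallest p together. The share of Cox6a2 turned direction when propionic acid replicate 1 was left out, to a difference of -1.80 percentage points.

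**Figure D4:**
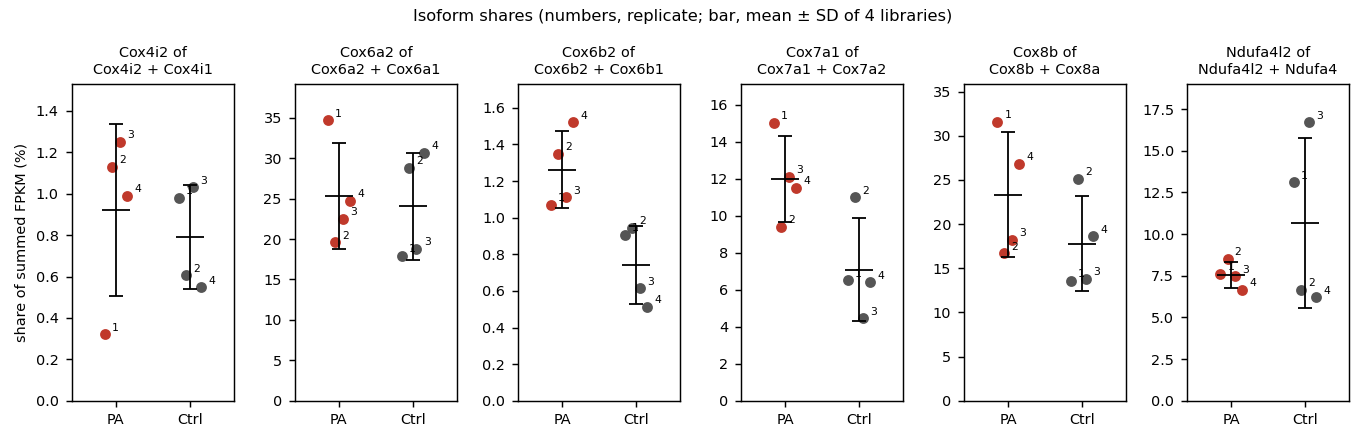
Share of the tissue or inducible form in the summed FPKM of its pair, in percent, for each library, propionic acid left and control right; numbers are replicates and bars mean ± SD of 4 libraries. The groups do not overlap for Cox6b2 and overlap in the other 5 pairs.

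Skeletal muscle was read from 14 marker genes. All were detected in every library, and their summed level was 4823 to 9967 FPKM in the propionic acid group and 4647 to 7267 FPKM in the control group. By library it was 9050.0, 4823, 5235 and 9967 FPKM in propionic acid replicates 1 to 4, and 5517, 7267, 4647 and 5637 FPKM in control replicates 1 to 4. By summed level, propionic acid replicates 1 and 4 and control replicate 2 were the highest, as for Cox8b, Cox6a2 and most members. By the mean log2 level of the 14 markers, which counts each gene alike, propionic acid replicate 3, at 7.77, was above control replicate 2, at 7.66. Of the 14 markers, 11 were above 0 and 3 below. At an unadjusted p under 0.05, 4 were higher and 1 lower, beside 4.07% of all tested genes higher and 2.21% lower. The 4 were Actn3, Myh4, Ckm (log2 fold change 0.99, limma adjusted p = 0.488) and Atp2a1 (log2 fold change 0.59, limma adjusted p = 0.77), and the lower was Myh1. Acta1, the skeletal muscle actin and the most abundant marker, had 2095, 927, 1147 and 1445 FPKM in the propionic acid libraries, against 1879, 1666, 1219 and 1263 FPKM in the control libraries (log2 fold change -0.15, SE 0.26, limma adjusted p = 0.935). Actn3, the actinin of fast fibres, had 114, 168, 110.1 and 236 FPKM in the propionic acid libraries, against 40.5, 51.9, 38.5 and 27.2 FPKM in the control libraries (log2 fold change 1.93, SE 0.27, limma adjusted p = 0.0998). Its groups did not overlap.

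The muscle markers did not all share a direction, with 11 above 0 and 3 below. Chosen after their values were seen, Myh4, which encodes the fastest myosin of muscle, had 121, 218, 176 and 378 FPKM in the propionic acid libraries, against 9.37, 24.7, 50.1 and 14.5 FPKM in the control libraries, and Myh1, a fast myosin heavy chain, had 266, 56.8, 137 and 98.8 FPKM in the propionic acid libraries, against 384, 312, 385 and 587 FPKM in the control libraries. The limma adjusted p was 0.0998 for Myh4 and 0.392 for Myh1. The mean log2 level of the 14 muscle markers was 8.14, 7.21, 7.77 and 8.32 in the propionic acid libraries. In the control libraries it was 7.46, 7.66, 7.34 and 7.09. Propionic acid replicates 1, 3 and 4 were thus above every control library. As a covariate this level takes out group difference along with muscle level, and the fit cannot tell them apart. With it, the median log2 fold change of the respiratory chain members was -0.05. In that fit 27 members were above 0 and 58 below. At an unadjusted p under 0.05 there were 0 members, beside 4.18% of all tested genes higher. Under that covariate Cox7a1 had a log2 fold change of 0.64 and Cox8b of -0.03. In bulk tissue, fewer cells of a type cannot be told apart from less RNA per cell.

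Markers of other tissues were set beside the members in the same way. Of the 7 slow and cardiac muscle markers, Myh6, Myh7, Myl2 and Myl3 were at 0 in at least 1 library, and the list summed to 3.79 to 7.91 FPKM in the propionic acid group and 1.92 to 5.26 FPKM in the control group. Adipocyte markers summed to 999 to 2450.0 FPKM in the propionic acid group and 1113 to 1748 FPKM in the control group, with 7 of 8 above 0. At an unadjusted p under 0.05, 3 were higher and 0 lower, beside 4.07% of all tested genes higher. These were Lep (log2 fold change 2.12, limma adjusted p = 0.392, groups overlapping), Adipoq (log2 fold change 0.77, limma adjusted p = 0.786) and Cidec. Among them Cidec, a lipid droplet protein, had 213, 121, 212 and 228 FPKM in the propionic acid libraries, against 103, 79.5, 103 and 78.2 FPKM in the control libraries (log2 fold change 1.05, SE 0.21, limma adjusted p = 0.287). Cfd, the adipokine adipsin and the most abundant of that list, had a log2 fold change of 0.35. Tnni1, the troponin of slow muscle, had 0.63 at a mean of 2.88 FPKM and was the only slow or cardiac marker tested. The defining brown fat genes Ucp1 and Otop1 were at 0 in at least 1 library, and Elovl3 and Cidea, which the skin's sebaceous glands also express, had log2 fold changes of 0.22 and 0.16. Keratinocyte markers summed to 6042 to 9310.0 FPKM in the propionic acid group and 6062 to 9074 FPKM in the control group, and fibroblast markers to 1960.0 to 3244 FPKM in the propionic acid group and 1707 to 3764 FPKM in the control group. The tissue label, skin, was checked on Krt14, a keratin of basal keratinocytes, which had 3405 to 4741 FPKM in the propionic acid group and 3175 to 5619 FPKM in the control group. Krt5, its partner keratin, had 1026, 1045, 986 and 894 FPKM in the propionic acid libraries, against 1214, 1056, 1506 and 1167 FPKM in the control libraries (log2 fold change -0.31, SE 0.14, limma adjusted p = 0.802), without overlap between the groups. Of the 7 keratinocyte markers 3 were above 0 and 4 below, with a median of -0.01. Dcn and Pdgfra of fibroblasts had log2 fold changes of 0.07 and -0.36. Lyz2 and Cd68 of myeloid cells had -0.03 and -0.54. Des and Myh11 of smooth muscle had -0.23 and -0.35, and Hbb-bs, a globin of red cells, had 0.39. The summed level of the 5 myeloid markers was 825 to 1315 FPKM in the propionic acid group and 1062 to 1499 FPKM in the control group. That of the 4 smooth muscle markers was 198 to 400.0 FPKM in the propionic acid group and 279 to 382 FPKM in the control group, and that of the 5 erythroid markers 175 to 416 FPKM in the propionic acid group and 98.5 to 462 FPKM in the control group. None of these genes passed the adjusted threshold in limma. The part of these tissues in the members' levels was not tested.

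Respiratory chain subunits are short genes, and short genes as a class had the same high libraries. The length implied by FPKM and reads had a median of 754 bases over the members, from 321 for Atp5k to 4145 for Atp5j, against 3371 for the tested genes. The 51 members shorter than 1000 bases stood at 0.26 and 0.31 log2 units above their means in propionic acid replicates 1 and 4 and at 0.17 in control replicate 2. The 35 longer members stood at 0.13, 0.19 and 0.02 in those libraries. In the shortest of 5 equal length groups of the other tested genes, with a median of 1250 bases, the values were 0.11, 0.18 and 0.08. In the longest group, with a median of 8348 bases, they were -0.16, -0.20 and -0.15.

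The group difference followed length as well. Of the 50 tested members under 1000 bases, 47 were above 0 with a median log2 fold change of 0.15, and of the 35 longer ones 27 were above 0 with a median of 0.08. In the other tested genes the median was 0.09 in the shortest group and -0.06 in the longest. When each library's trend on gene length over the other genes was taken out, an alternative chosen after seeing the data, the members' median was 0.01, with 50 above 0 and 35 below. At an unadjusted p under 0.05, 5 members were then higher and 1 lower. In the same fit 503 of all 12598 tested genes (3.99%) were higher and 418 lower. Cox7a1 kept a log2 fold change of 0.91 (limma adjusted p = 0.397) after this adjustment, and Cox6b2 of 0.58 (limma adjusted p = 0.552).

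**Figure D5:**
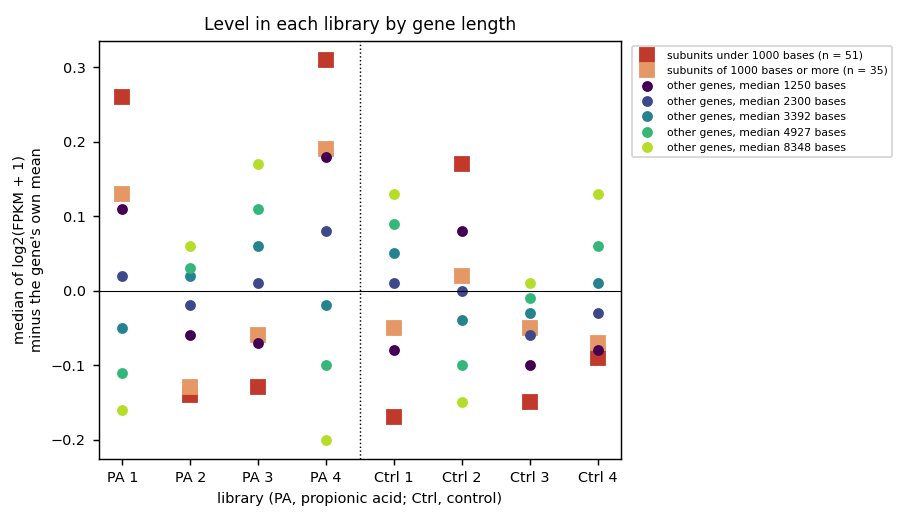
Median log2(FPKM + 1) minus the gene's own mean, in each library, for members under 1000 bases, members of 1000 bases or more, and 5 equal groups of other tested genes by length. In propionic acid replicates 1 and 4 and control replicate 2 the short genes are high and the long genes low, and the order is turned round in the other libraries.

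Genes that work with the respiratory chain were read from lists, and none of their members passed the adjusted threshold. Beside the counts at an unadjusted p under 0.05 in these lists, 4.07% of all tested genes were higher and 2.21% lower. Among 15 complex I assembly factors, 10 were above 0 and 2 had an unadjusted p under 0.05, both higher. Ndufaf8, which helps to build the complex, had the smallest p of the list with 31.4, 24.7, 26.1 and 31.7 FPKM in the propionic acid libraries, against 20.4, 27.2, 19.9 and 22.9 FPKM in the control libraries (log2 fold change 0.32, SE 0.13, limma adjusted p = 0.77). Among 32 tested assembly factors of complexes II to V, 20 were above 0 and 1 was higher at an unadjusted p under 0.05. This was Tmem70, an ATP synthase assembly factor, with 17.3, 16.1, 15.6 and 17.2 FPKM in the propionic acid libraries, against 11.8, 14.5, 13.2 and 13.9 FPKM in the control libraries (log2 fold change 0.29, SE 0.1, limma adjusted p = 0.659). Its groups did not overlap. The most abundant assembly factors, Acad9 of complex I and Uqcc2 of complex III, had log2 fold changes of 0.00 and 0.06.

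The large subunit of the mitochondrial ribosome, which makes the proteins encoded by mitochondrial DNA, had 43 of 49 genes above 0 with a median of 0.09. Of these, 4 were higher and 0 lower at an unadjusted p under 0.05. Mrpl42 had the smallest p of the list with 112, 109, 97.5 and 116 FPKM in the propionic acid libraries, against 85.7, 92.2, 86.4 and 91.2 FPKM in the control libraries (log2 fold change 0.29, SE 0.1, limma adjusted p = 0.713), and Mrpl52, the most abundant, had a log2 fold change of 0.11. The citric acid cycle, which supplies NADH and succinate, had 12 of 17 genes above 0 with a median of 0.04. Sucla2, a subunit of succinyl-CoA ligase, had 44.1, 40.4, 41.2 and 44.3 FPKM in the propionic acid libraries, against 35.4, 37.7, 30.8 and 36.1 FPKM in the control libraries (log2 fold change 0.28, SE 0.1, limma adjusted p = 0.724). Mdh2, the mitochondrial malate dehydrogenase and the most abundant of that list, had a log2 fold change of 0.02.

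Subunits, electron carriers and related genes whose names fall outside the rule numbered 7, and 6 were above 0 with a median of 0.17. The 1 below 0 was Coq7, which is neither a subunit nor a carrier, at -0.1. Etfdh, which passes electrons from fatty acid oxidation to ubiquinone, had 41.6, 41.0, 37.7 and 35.7 FPKM in the propionic acid libraries, against 31.6, 31.6, 25.9 and 30.6 FPKM in the control libraries (log2 fold change 0.37, SE 0.1, limma adjusted p = 0.488). Its groups did not overlap. Etfb, a subunit of the flavoprotein that feeds Etfdh, had 156, 104, 115 and 152 FPKM in the propionic acid libraries, against 112, 111, 92.7 and 94.8 FPKM in the control libraries (log2 fold change 0.34, SE 0.16, limma adjusted p = 0.797). Among 14 inner membrane carriers and outer membrane proteins, 9 were above 0 with a median of 0.00. Slc25a4, the ADP/ATP carrier of heart and skeletal muscle, had 353, 210.1, 236 and 315 FPKM in the propionic acid libraries, against 190.2, 241, 164 and 212 FPKM in the control libraries (log2 fold change 0.45, SE 0.19, limma adjusted p = 0.786). Slc25a5, the widely expressed ADP/ATP carrier, had 322, 345, 334 and 363 FPKM in the propionic acid libraries, against 365, 380.4, 390.4 and 361 FPKM in the control libraries (log2 fold change -0.13, SE 0.1, limma adjusted p = 0.874). Within this pair of carriers the log2 fold change was above 0 for the muscle form and below 0 for the widely expressed form. Neither passed the threshold, and the groups of both genes overlapped. The widely expressed form had the higher mean in the propionic acid group, 341 FPKM against 279 FPKM.

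Known regulators of respiratory chain genes had small differences. Of 15 tested regulators, 7 were above 0, 8 below, and 1 was higher at an unadjusted p under 0.05. Ppargc1a, the coactivator PGC-1alpha, was under the filter with 0.263, 0.28, 0.229 and 0.177 FPKM in the propionic acid libraries, against 0.164, 0.211, 0.107 and 0.343 FPKM in the control libraries. Esrra, the estrogen-related receptor ERRalpha, was the most abundant with 20.2, 20.2, 18.7 and 20.1 FPKM in the propionic acid libraries, against 18.5, 20.9, 19.1 and 18.0 FPKM in the control libraries (log2 fold change 0.05, SE 0.09, limma adjusted p = 0.934). Perm1, a muscle regulator that acts downstream of PGC-1alpha, had 1.81, 1.9, 1.57 and 0.832 FPKM in the propionic acid libraries, against 1.08, 0.431, 0.514 and 1.08 FPKM in the control libraries (log2 fold change 0.51, SE 0.19, limma adjusted p = 0.746). Its groups overlapped through propionic acid replicate 4 and control replicates 1 and 4.

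The other regulators had log2 fold changes between -0.16 and 0.12. The factors Nrf1, Gabpa, Gabpb1 and Yy1, which bind promoters of many respiratory chain genes, had log2 fold changes of 0.12, -0.03, 0.04 and -0.07. Tfam, Tfb1m, Tfb2m and Polrmt, which serve the expression of mitochondrial DNA, had 0.07, -0.01, 0.00 and 0.05. The coactivators Ppargc1b and Pprc1 had -0.16 and -0.03. The fatty acid receptors Ppara, Ppard and Pparg had -0.10, -0.11 and 0.07. Esrrb, at a mean of 0.0607 FPKM, and Esrrg were under the filter. Esrrg, an estrogen-related receptor of tissues rich in mitochondria, had 0.205, 0.0955, 0.193 and 0.111 FPKM in the propionic acid libraries, against 0.0555, 0.06, 0.0447 and 0.0616 FPKM in the control libraries, and its groups did not overlap at these low levels.

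Short sequence motifs of those factors were counted in the RefSeq promoters of 69 matched members, read on both strands. The letters CGCATGCG, for NRF1, were in 8 of 69 members (11.6%), against 1.91% of all 27025 promoters and 3.72% of the 10074 promoters of tested genes. The ETS letters CCGGAAG were in 16 (23.2%), against 9.12% of all promoters and 17.8% of those of tested genes. The YY1 letters AAGATGGC were in 9 (13%), against 2.88% of all promoters and 4.49% of those of tested genes. The ERR letters AAGGTCA, for estrogen-related receptors, were in 8 (11.6%), against 4.66% of all promoters and 3.13% of those of tested genes. The letters CTANNNNTAG, a loose form of the MEF2 site of muscle genes, were in 1 member, Cox5b (1.45%), against 3.7% of all promoters and 2.91% of those of tested genes. The motifs do not contain each other, and 34 of the 69 members (49.3%) held at least 1 of the 5, against 28.7% of the promoters of tested genes.

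A pair of promoters that hold such matches is shown, chosen after their sequences were seen, the first for its 3 different motifs and the second for a member at an unadjusted p under 0.05. Atp5k, the e subunit of ATP synthase, has its window at chr5:108434350-108434649, and Ndufc1 at chr3:51408906-51409205, both on the minus strand of GRCm38.p6. Capitals mark the NRF1, ETS and ERR letters, in that order, in Atp5k, and the YY1 letters in Ndufc1.
Atp5k: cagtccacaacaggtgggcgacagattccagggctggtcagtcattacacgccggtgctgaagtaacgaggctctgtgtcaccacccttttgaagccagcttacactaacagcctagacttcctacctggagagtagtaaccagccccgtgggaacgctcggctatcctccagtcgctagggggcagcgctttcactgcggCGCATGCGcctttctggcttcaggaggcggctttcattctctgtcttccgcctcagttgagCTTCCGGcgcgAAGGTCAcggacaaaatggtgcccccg
Ndufc1: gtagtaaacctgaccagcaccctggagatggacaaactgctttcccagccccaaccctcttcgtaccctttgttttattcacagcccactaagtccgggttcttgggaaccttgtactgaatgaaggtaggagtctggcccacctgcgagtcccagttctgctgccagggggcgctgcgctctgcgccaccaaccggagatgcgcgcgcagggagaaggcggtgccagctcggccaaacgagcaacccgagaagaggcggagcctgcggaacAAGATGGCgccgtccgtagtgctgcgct
The ETS match of Atp5k reads CTTCCGG because it is on the other strand. Atp5k had 342, 256, 284 and 346 FPKM in the propionic acid libraries, against 284, 327, 254 and 297 FPKM in the control libraries (log2 fold change 0.07, SE 0.14, limma adjusted p = 0.943), and its 3 highest libraries were those of most members. The median promoter of a matched member had a GC content of 57.3% and 19 CG dinucleotides, against 60.7% and 20 for tested genes. A match describes these letters and no binding was measured.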

How the data were processed

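The authors deposited 1 table of FPKM values for 25378 genes in 8 libraries. The submitters' processing notes name CASAVA, cutadapt, HISAT2 2.1.0 and build mm10, without their roles. How genes were counted, on which strand and with which annotation is not given in the sources used here. The PA and Ctrl columns were matched to the propionic acid and control labels by name and replicate number.

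FPKM is no count, so log2(FPKM + 1) was fitted for the 12598 genes at or above 1 FPKM in 4 libraries or more, using limma 3.58.1 in R 4.3.3 (intensity trend, robust, group only, 2-sided). P-values were adjusted by Benjamini-Hochberg over all 12598 genes, with a threshold of 0.05. Whole reads were recovered from the FPKM steps for 100% of genes, with a tolerance of 0.01 of a read, and gave the depth, the implied gene lengths and a limma-voom alternative, which called 0 genes. Fold changes on this scale understate those of low genes. Shares of isoform pairs were compared by exact permutation.

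The members, lists and named genes were chosen with earlier results of these data known. Named members are those of the isoform pairs, the most abundant and the 2 with the smallest p of each complex, and the 5 with the largest fold change. Each list gives its most abundant gene and that with the smallest p, and all regulators. Other names were chosen after their values were seen. For 1 member, values are not reported here or drawn, and it is kept in the counts. By symbol, 81 of 86 members were found in GENCODE vM21 (GRCm38, the same assembly as mm10), and 27 share exon bases with another gene. Alternatives were other scalings, filters, pseudocounts and weights, a muscle covariate, a replicate block, voom, length adjustment and leaving libraries out.

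The labels do not tie libraries of the same replicate number to each other, and whether such libraries share a day or a batch cannot be told from these values. The deviations of same-numbered libraries correlated at -0.32, -0.08, 0.20 and -0.12, and 0 of 4 matched best within their number.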

Additional observations from a re-analysis of the deposited data

Results flagged for a closer look

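A library that stood apart within its group was looked for in 66 groups of 4 values, the named members, the isoform shares and the summed level of each complex in both groups, and chance alone marks about 1 in 20 such groups. Ndufc1, the small complex I subunit, had 57.3 FPKM in control replicate 2, while the other 3 control libraries lay between 43.1 and 45.4 FPKM. Atp5j2, the f subunit of ATP synthase, had 489 FPKM in control replicate 2, while the other 3 control libraries lay between 454 and 458 FPKM. Control replicate 2 was also the control library in which most members and the summed muscle markers were highest. The part of muscle, gene length or the library itself in these values was not tested.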

How the results depend on the processing

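No member passed the adjusted threshold in limma under any alternative run. Over all genes, 1 passed with weights per library, and 0 to 2 passed when libraries were left out, Ucp3 without control replicate 2 and Cbln1 and Nr1d2 without control replicate 3. Members at an unadjusted p under 0.05 are given here with the percentage of all tested genes higher in the same fit. They numbered 4 as reported (4.07%), 2 with median-of-ratios scaling (3.32%) and 6 with quantile normalization (3.82%). Weights per library gave 23 (8.24%) and the skeletal muscle covariate 0 (4.18%). Without control replicates 1 and 3 there was 1 (2.43%). Leaving out 1 library gave 2 to 9 (2.21% to 5.75%). No member was lower at that level in these fits. With the replicate block, which the labels do not tie to shared animals, members at that level numbered 2 (3.42%), and 0 genes passed the threshold.

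The members' median log2 fold change reversed with the muscle covariate (-0.053, and for complexes I to V -0.051, -0.062, -0.007, -0.048 and -0.087). That covariate itself differed between the groups, so the fit also takes out group difference. The split above and below 0 was 71 and 14 with median-of-ratios scaling, 58 and 27 without propionic acid replicate 4, 62 and 23 without propionic acid replicate 1, and 56 and 29 without control replicates 1 and 3. Leaving out propionic acid replicate 2 gave 80 and 5, replicate 3 of that group 78 and 7, and control replicate 2 gave 77 and 8. The split was 78 and 7 with weights, which gave a median of 0.226. Log2 fold changes that changed sign were mostly near 0. With the muscle covariate they were Cox6a2 -0.108, Cox6b1 -0.159, Cox8b -0.026, Cox8a -0.056, Sdhb -0.021, Uqcrh -0.078 and Atp5b -0.007. With median-of-ratios scaling Cox8a was -0.005 and Atp5b -0.008, and with quantile normalization Cox6b1 was -0.047, Cox8a -0.026 and Atp5b -0.023. With weights Cox4i2 was -0.163, Cox4i1 0.122 and Atp5b -0.009. Length-adjusted, Cox4i2 was -0.017, Cox6b1 -0.101, Cox8a -0.109 and Atp5b -0.043.

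With 1 library left out in turn, values spanned 0 and ran from -0.067 to 0.394 for Cox4i2, -0.098 to 0.08 for Cox4i1, -0.035 to 0.11 for Cox6b1, -0.014 to 0.054 for Cox8a, -0.215 to 0.194 for Ndufa4l2, and -0.024 to 0.043 for Atp5b. Without control replicates 1 and 3, Cox6a2 was -0.181, Cox6b1 -0.022, Cox8a -0.022, Ndufa4l2 0.386 and Uqcrh -0.008. The difference in the share of Cox6a2 ran from -1.797 to 3.533 percentage points with 1 library left out and was -4.394 without control replicates 1 and 3, where that of Ndufa4l2 was 1.125. The cause of these changes was not tested. How far read depth or the spread between 4 libraries limits precision was not tested.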
